A study of Homo sapiens with 18 samples.

Results

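The genes described here are 37 interferon-stimulated genes, given as a list of symbols and found in the deposited count table by their Ensembl identifiers. All 37 had a row among the 63677 genes of the table, all 37 had counts in every library, and all 37 were among the 16678 genes tested. The IFIT, OAS, GBP, IRF and STAT families, which also respond to interferon, are not part of the list. The rule used names only and no measured value, but the list was chosen with earlier results of these data known.

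The data comprised 18 RNA libraries of THP-1, an established human monocytic leukaemia line, in 6 groups of 3. WT cells received no siRNA; they are untreated by the series text, but were given the transfection mix alone by the sample labels. SCR cells received 25 nM of a non-targeting siRNA and KD cells 25 nM of an siRNA against TRAFD1, a zinc finger protein that regulates Toll-like receptor and NF-kB signalling. After 72 h the cells were given LPS of E. coli at 10 ng/ml or medium for 4 h, a time that a supplementary legend of the study gives as 3 h. Below, the libraries in medium are replicates 1 to 3 and those with LPS replicates 4 to 6, in that order. Cells were grown in triplicate, but nothing in the sources used here says that the replicates were separate cultures, so that p-values may measure technical spread. No group received interferon.

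Interferons of type I bind a receptor formed by IFNAR1 and IFNAR2, whose kinases JAK1 and TYK2 pass the signal to transcription factors. These bind the interferon-stimulated response element (ISRE) or the gamma-activated site (GAS) in promoters. The products block steps of viral replication, modify proteins with the ubiquitin-like ISG15, or damp the signal. In monocytes, LPS reaches these genes through TLR4, the adaptor TICAM1, the kinase TBK1 and IRF3, which switch on the interferon beta gene IFNB1 and some of the members themselves.

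The promoters show what the list has in common beyond its name. RefSeq promoter windows, from 250 bases before to 50 bases after a start site on GRCh38.p14, were matched for 33 of the 37 members; IFITM2, MX2, USP18 and TRIM22 had no entry. The ISRE core GAAANNGAA was searched on both strands. It stood in a window of 23 of the 33 members (69.7%), against 9.86% of the 27305 genes in the table, and 9 members (27.3%) held at least 2 cores, against 0.861% of genes. The GAS core TTCNNNGAA stood in 10 of the 33 (30.3%), against 9.38% of genes; a stretch of letters can belong to both motifs. A match is a description of the letters and not a measured binding site. The windows below were chosen for the core that they hold, share or lack, with each ISRE core in capitals; ISG15 and IFI6 hold 3 cores each, RSAD2 and DTX3L each hold a core that lies in the window of a second member, and ZC3HAV1, which LPS raised, holds none.
ISG15, chr1:1013247-1013546, plus strand: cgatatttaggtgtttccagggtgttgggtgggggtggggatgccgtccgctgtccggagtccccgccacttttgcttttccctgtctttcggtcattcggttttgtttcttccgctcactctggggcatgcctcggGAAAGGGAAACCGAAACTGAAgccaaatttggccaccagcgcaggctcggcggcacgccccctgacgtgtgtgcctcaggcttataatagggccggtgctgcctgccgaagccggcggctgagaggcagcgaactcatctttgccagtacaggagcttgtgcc
IFI6, chr1:27672143-27672442, minus strand: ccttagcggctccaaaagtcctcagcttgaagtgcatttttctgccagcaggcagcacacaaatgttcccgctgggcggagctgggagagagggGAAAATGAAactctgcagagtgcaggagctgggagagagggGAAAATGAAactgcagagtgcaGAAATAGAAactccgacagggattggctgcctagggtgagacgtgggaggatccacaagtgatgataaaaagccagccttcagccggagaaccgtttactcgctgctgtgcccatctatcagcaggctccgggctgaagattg
RSAD2, chr2:6865635-6865934, plus strand: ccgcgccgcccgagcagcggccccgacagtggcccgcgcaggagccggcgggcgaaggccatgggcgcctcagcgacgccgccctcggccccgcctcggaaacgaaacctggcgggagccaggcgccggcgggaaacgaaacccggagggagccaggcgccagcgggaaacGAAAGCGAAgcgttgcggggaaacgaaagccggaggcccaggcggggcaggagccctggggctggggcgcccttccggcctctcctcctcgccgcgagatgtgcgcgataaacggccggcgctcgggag
DTX3L, chr3:122564088-122564387, plus strand: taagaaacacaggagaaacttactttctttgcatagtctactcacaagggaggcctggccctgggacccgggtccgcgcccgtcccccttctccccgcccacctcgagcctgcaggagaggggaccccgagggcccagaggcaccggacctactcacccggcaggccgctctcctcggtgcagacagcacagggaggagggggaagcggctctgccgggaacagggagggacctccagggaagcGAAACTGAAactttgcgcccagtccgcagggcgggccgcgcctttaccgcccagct
ZC3HAV1, chr7:139109671-139109970, minus strand: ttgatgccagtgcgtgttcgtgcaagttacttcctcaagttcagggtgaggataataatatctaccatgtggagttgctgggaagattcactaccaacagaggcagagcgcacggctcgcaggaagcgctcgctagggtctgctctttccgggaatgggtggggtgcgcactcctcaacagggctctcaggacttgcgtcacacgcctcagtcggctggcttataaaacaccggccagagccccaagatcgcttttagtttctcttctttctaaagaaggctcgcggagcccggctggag

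The 3 cores of ISG15 overlap one another and start 113, 107 and 101 bases before the RefSeq start site. Those of IFI6 start 156, 115 and 93 bases before it and do not overlap. The core of RSAD2 at chr2:6865806-6865814 starts 79 bases before a RefSeq start site of that gene. It also lies in a window of CMPK2, which is transcribed the other way. Likewise the core of DTX3L at chr3:122564332-122564340 lies 6 bases before its start and 40 bases before a start of PARP9 on the other strand. RSAD2 has another window, chr2:6877527-6877826, whose core starts 144 bases before its start site and lies in no window of CMPK2.

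The whole table set the frame for these genes. Library totals ran from 8206023 to 22344279 counts. TNF, IL1B, CXCL8, CXCL10 and NFKBIA, taken as a check of the LPS labels, rose by 1.40 to 6.96 on the log2 scale in the 3 LPS comparisons (edgeR, highest adjusted p = 1.1e-05). TRAFD1 was at 26.8, 20.1 and 24.3 CPM (counts per 1e+06 counts of a library after TMM scaling) in SCR in medium and 11.6, 5.37 and 9.02 in KD, a log2 difference of -1.45 ± 0.23 (SE, adjusted p = 0.0277). With LPS it was at 21.9, 27.5 and 18.7 CPM in SCR and 15.8, 14.0 and 13.8 in KD, and the difference of -0.65 ± 0.22 did not pass the test (adjusted p = 0.262). The 8 monocyte markers summed to 457 to 645 CPM per library, of which FCGR1A made up 249 to 342 CPM, and the 8 markers of other cell types to 3.54 to 5.90 CPM, with CD3D, CD3E, MS4A1, HBB and PPBP at 3 counts or fewer in every library. CD14, the LPS co-receptor, fell with LPS by 0.74, 1.53 and 1.07 on the log2 scale in WT, SCR and KD, and in medium it was higher than in WT by 1.14 ± 0.20 in SCR and 0.72 ± 0.20 in KD; its part in the results below was not tested. Some libraries stood apart from their group in a way that followed the base composition of the counted window, the last 500 bases of a gene. For GC percent the window was placed by the GENCODE annotation lifted to GRCh37. The authors counted on an Ensembl annotation, whose windows may differ. Over 16235 genes, Spearman's rho between a library's deviation from its group mean and the GC percent of the window was -0.314 in WT medium replicate 1 and -0.292 in KD medium replicate 1, and lay between -0.140 and 0.208 in the other 16 libraries.

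The members were expressed in THP-1 without any stimulus. In WT cells in medium their group means ran from 13.7 CPM (IFITM1) to 2116 CPM (IFITM3), with a median of 143 CPM against 10.6 CPM over all tested genes, and 22 of the 37 lay in the top 10%. Reads were counted at the last 500 bases of each gene, so levels are given as CPM and not scaled by transcript length. Whether the transcript ends used in THP-1 lie in that window was not tested, so ranks between genes are approximate. Together the members took 1.08% to 1.33% of the counts of a library. IFI6 and IFITM3 were the highest in all 6 groups, and IFITM1 was the lowest in all 6. IFITM3 was at 1982, 2274 and 2093 CPM in WT in medium, IFI6 at 2099, 1936 and 2059, and the ranges of the pair overlapped, whereas ADAR, at 723, 692 and 717 CPM, lay below both.

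The first question was what 4 h of LPS did to the list. In WT, LPS raised 15 of the 37 members (40.5%) and lowered 0, where 14.3% of all tested genes were called, 7.01% higher and 7.26% lower. In SCR it raised 11 and lowered 2, where 17.2% of all genes were called, 8.64% higher and 8.56% lower. In KD it raised 11 and lowered 1, where 11.5% were called, 6.41% higher and 5.05% lower. The shares over all genes were not matched for expression level, which was higher in the members. The changes were small: the median log2 fold change over the members was 0.15, 0.27 and 0.27 in WT, SCR and KD, against -0.03, -0.03 and -0.00 over all genes, and 1 member in 1 condition, XAF1 in SCR, passed 1 on the log2 scale. The count in WT rested on single libraries: it was 5 without LPS replicate 4, 7 without LPS replicate 5, LPS replicate 6 or medium replicate 3, and 8 without medium replicate 2. In KD it was 7 without LPS replicate 5, 18 without medium replicate 1, and 4 in a fit to the 6 KD libraries alone. Over the members, Spearman's rho between the log2 change and the GC percent of the counted window was -0.518 in SCR, -0.538 in KD and -0.092 in WT, and over all genes -0.151, -0.182 and 0.054; its part in the changes was not tested. In bulk RNA, fewer responding cells and a smaller response per cell cannot be told apart.

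**Figure D1:**
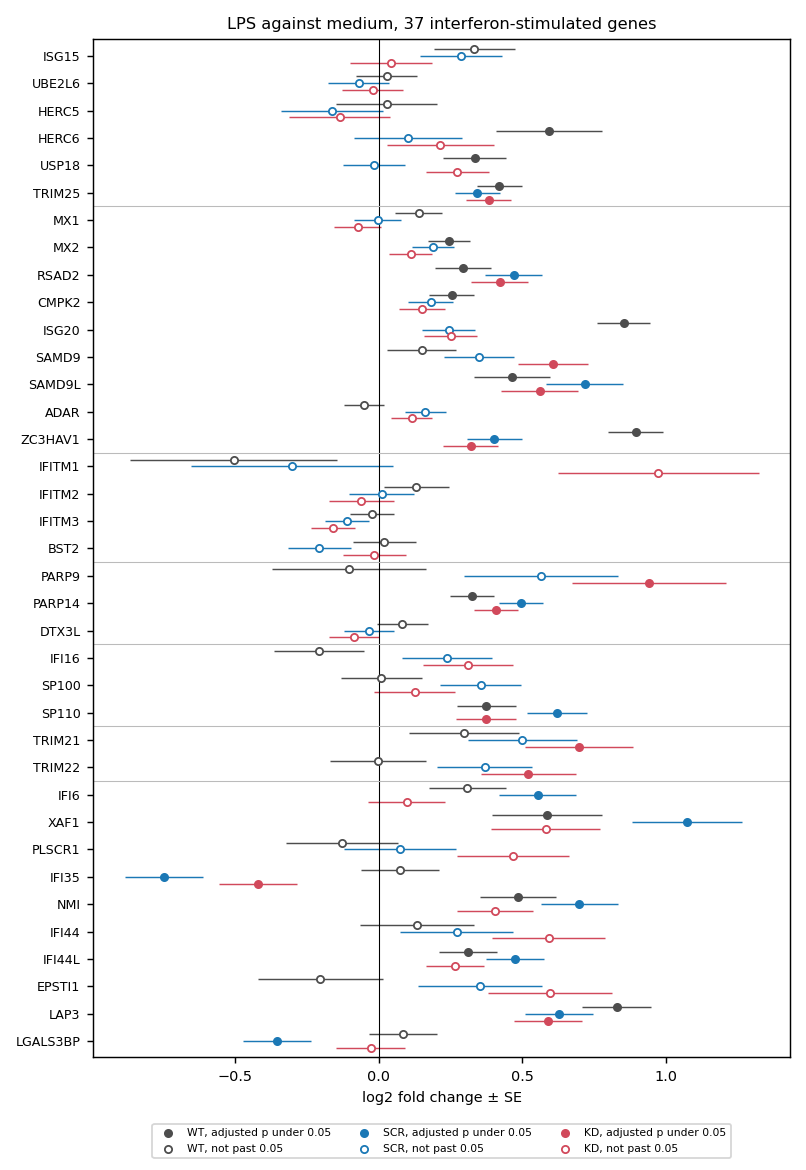
Log2 fold change (x axis, ± SE) of the 37 members on LPS against medium in WT, SCR and KD cells, ordered by role with grey lines between roles; filled points passed an adjusted p of 0.05 (edgeR). Most points lie right of 0 and below 1, and IFI35 lies left of 0 in SCR and KD.

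LPS raised 7 members in all 3 conditions: TRIM25, RSAD2, SAMD9L, ZC3HAV1, PARP14, SP110 and LAP3. Without WT LPS replicate 4 or WT medium replicate 2 the shared set was 4, LAP3, PARP14, TRIM25 and ZC3HAV1, and LAP3, PARP14 and TRIM25 were the 3 that stayed in it whichever single library was left out. Over all tested genes 2.82% were raised in each of the 3. XAF1, NMI and IFI44L were raised in 2 conditions, 10 members in 1 and 17 in none. An ISRE core stood in a window of 3 of the 7 members raised in all 3 conditions, and of 12 of the 16 with a promoter entry that were raised in none.

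For the ISG15 conjugation system, the list holds ISG15 itself, the conjugating enzyme UBE2L6, the ligases HERC5 and TRIM25, and HERC6, the neighbour of HERC5. It also holds USP18, which removes ISG15 and also inhibits the receptor subunit IFNAR2. Of these 6 members, LPS raised HERC6, USP18 and TRIM25 in WT and TRIM25 alone in SCR and in KD. The calls of HERC6 and USP18 were each kept in 1 of 6 fits without 1 library. TRIM25 (chr17:54913748-54991441 on GRCh37), which also ubiquitinates the RNA sensor RIG-I, was at 311, 340 and 347 CPM in WT in medium and 464, 437 and 434 with LPS; gene positions are those of the GENCODE annotation lifted to GRCh37. In SCR it was at 291, 315 and 298 CPM, then 375, 384 and 387, and in KD at 236, 274 and 260, then 352, 318 and 334. Every LPS library was above every medium library of its condition, and the log2 changes were 0.42 ± 0.08, 0.34 ± 0.08 and 0.38 ± 0.08 (adjusted p = 6.5e-04, 0.00412 and 0.00245).

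ISG15 (chr1:936518-949920) did not pass the test in any condition, although its promoter holds 3 cores. It was at 185, 306 and 268 CPM in WT in medium and 299, 324 and 334 with LPS, and the groups overlapped. In SCR it was at 318, 310 and 354 CPM, then 436, 342 and 420. In KD it was at 289, 341 and 400 CPM, then 365, 332 and 364. The log2 differences were 0.33 ± 0.14, 0.29 ± 0.14 and 0.04 ± 0.14 (adjusted p = 0.131, 0.179 and 0.884). UBE2L6 and HERC5 differed by 0.03 each in WT and by -0.16 to -0.02 in SCR and KD, none past the test.

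Among the GTPases and the effectors that act on nucleotides or RNA, LPS raised 6 of 9 in WT, 4 in KD and 3 in SCR. ZC3HAV1 (chr7:138728261-138816868), which binds CpG-rich viral RNA, had the largest change of the list in WT. It went from 216, 269 and 251 to 437, 448 and 483 CPM in WT, a log2 change of 0.90 ± 0.10 (adjusted p = 7.6e-07). In SCR it went from 302, 311 and 262 to 385, 365 and 406 CPM, and in KD from 269, 306 and 317 to 400, 358 and 356. These changes were 0.40 ± 0.10 and 0.32 ± 0.10, with the LPS libraries above the medium libraries throughout. The call in KD was kept in 1 of 6 fits without 1 library. It was lost with RLE scaling and in the fit to the KD libraries alone.

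ISG20 (chr15:89178901-89199714), an exonuclease that degrades single-stranded RNA, rose from 53.5, 58.2 and 57.3 to 94.7, 109 and 102 CPM in WT. That was a log2 change of 0.85 ± 0.09 (adjusted p = 9.1e-07). In SCR it was at 75.8, 74.4 and 76.3 CPM in medium and 84.5, 89.1 and 94.5 with LPS, and in KD at 74.5, 78.7 and 86.4, then 101, 94.6 and 89.2. The LPS libraries lay above the medium libraries in both, yet the differences of 0.24 ± 0.09 and 0.25 ± 0.09 did not pass (adjusted p = 0.0749 and 0.0842). In medium every SCR and KD library was above every WT library.

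RSAD2 (chr2:7005688-7038370), known as viperin, makes a chain-terminating nucleotide, and CMPK2 is a mitochondrial nucleotide kinase encoded beside it. RSAD2 was at 68.2, 66.7 and 75.4 CPM in WT in medium and 92.7, 82.1 and 82.9 with LPS. SCR libraries were at 65.2, 65.4 and 69.1 CPM, then 91.7, 91.7 and 93.1, and in KD at 55.4, 70.6 and 63.3, then 84.9, 87.9 and 80.4. The groups were apart in each condition, with log2 changes of 0.29 ± 0.10, 0.47 ± 0.10 and 0.42 ± 0.10. The call in WT, at an adjusted p of 0.0493, was lost whenever any of the 6 libraries was left out. CMPK2 passed in WT alone, at 0.25 ± 0.08, a call kept in 1 of 6 fits without 1 library.

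SAMD9 and SAMD9L, cytosolic proteins that restrict poxviruses and slow growth, lie next to each other on chromosome 7. SAMD9L (chr7:92759369-92777698) was at 131, 112 and 105 CPM in WT in medium and 179, 159 and 141 with LPS. SCR cells had 96.9, 92.1 and 111 CPM, then 197, 142 and 155, and in KD at 131, 94.1 and 109, then 164, 166 and 163. No LPS library of SAMD9L fell into the range of its medium libraries, and the changes were 0.46 ± 0.13, 0.72 ± 0.13 and 0.56 ± 0.13. Its call in WT was kept in 2 of 6 fits without 1 library. SAMD9 passed by edgeR in KD, at 0.61 ± 0.12. In SCR its change of 0.35 ± 0.12 was at an adjusted p of 0.0516 by edgeR and was called by DESeq2 and with RLE scaling, and in WT it was 0.15 ± 0.12.

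MX1 (chr21:42791947-42841998), a dynamin-like GTPase that traps viral nucleocapsids, and ADAR, which edits adenosine to inosine in double-stranded RNA, did not pass in any LPS comparison. MX1 was at 451, 504 and 451 CPM in WT in medium and 494, 533 and 522 with LPS. SCR libraries were at 448, 443 and 474 CPM, then 454, 413 and 495. In KD it was at 416, 456 and 480 CPM, then 439, 421 and 425. The differences were 0.14 ± 0.08, -0.00 ± 0.08 and -0.07 ± 0.08 on the log2 scale, and the groups overlapped in every condition. MX2, a nuclear pore GTPase that restricts HIV, rose by 0.25 ± 0.07 in WT, a call kept in 1 of 6 fits without 1 library.

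None of the 4 membrane restriction factors passed in any LPS comparison. IFITM1, IFITM2 and IFITM3 block fusion of enveloped viruses, and BST2, known as tetherin, holds budding virus at the surface. IFITM3 differed by -0.02 ± 0.08, -0.11 ± 0.08 and -0.16 ± 0.08 in WT, SCR and KD, and BST2 by 0.02 ± 0.11, -0.21 ± 0.11 and -0.02 ± 0.11. IFITM1, the lowest member with 48 to 440 counts per library, had the widest errors, at -0.51 ± 0.36, -0.30 ± 0.35 and 0.97 ± 0.35. The 3 IFITM genes are close copies, so reads may have been split or shared between them in the counting.

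In the ADP-ribosylation group, PARP14 (chr3:122399686-122449687), which adds single ADP-ribose units, rose everywhere, while PARP9 and DTX3L, which form a complex, did not move together. PARP14 was at 613, 544 and 621 CPM in WT in medium and 744, 713 and 770 with LPS. SCR cells had 503, 517 and 529 CPM, then 755, 681 and 749, and in KD at 483, 520 and 448, then 619, 662 and 646. Its groups did not overlap in any condition, and the changes were 0.32 ± 0.08, 0.50 ± 0.08 and 0.41 ± 0.08. PARP9 differed by -0.10 ± 0.27 in WT and 0.57 ± 0.27 in SCR, and it passed in KD at 0.94 ± 0.27 (adjusted p = 0.0258). That call was kept in 2 of 6 fits without 1 library and lost in the fit to the KD libraries alone. DTX3L stayed within -0.09 and 0.08 and did not pass.

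Of the nuclear proteins, SP110 rose in all 3 conditions, and SP100, a component of the same nuclear bodies, and IFI16, a DNA sensor, passed in none. SP110 (chr2:231029902-231090444) was at 247, 219 and 243 CPM in WT in medium and 318, 294 and 309 with LPS. In SCR cells, SP110 was at 178, 212 and 193 CPM, then 327, 258 and 312, and in KD at 180, 212 and 166, then 235, 232 and 257. The changes were 0.38 ± 0.10, 0.62 ± 0.10 and 0.37 ± 0.10, with no overlap of the groups. The calls of SP110 in WT and in KD were each kept in 3 of 6 fits without 1 library. TRIM21, a cytosolic antibody receptor and ubiquitin ligase, and TRIM22, an antiviral ligase, passed in KD, at 0.70 ± 0.19 and 0.52 ± 0.17. These calls were lost in 2 and 5 of 6 fits without 1 library, and in the fit to the KD libraries alone. In SCR the groups of both genes were apart, at 0.50 ± 0.19 and 0.37 ± 0.17, which edgeR did not call (adjusted p = 0.0755 and 0.139) and DESeq2 called for TRIM21. In WT they differed by 0.30 ± 0.19 and -0.00 ± 0.17.

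Of the 10 remaining members, LPS raised 5 in SCR, 4 in WT and 1 in KD, and lowered 2 in SCR and 1 in KD. LAP3 (chr4:17578821-17609595), an aminopeptidase that trims peptides, went from 61.5, 74.2 and 59.2 to 116, 115 and 115 CPM in WT. In SCR it went from 72.0, 92.1 and 88.6 to 156, 121 and 114 CPM, and in KD from 93.3, 105 and 99.4 to 156, 150 and 143. The LPS libraries were the higher ones in each condition, and the changes were 0.83 ± 0.12, 0.63 ± 0.12 and 0.59 ± 0.12 (adjusted p = 3.8e-05, 9.5e-04 and 0.00212). XAF1, a partner of the apoptosis inhibitor XIAP, rose in SCR from 77.2, 98.1 and 87.9 to 216, 148 and 191 CPM, a change of 1.08 ± 0.19. Its change was 0.59 ± 0.19 in WT, where the call was lost in 5 of 6 fits without 1 library, and 0.58 ± 0.19 in KD, which DESeq2 called and edgeR did not (adjusted p = 0.0527). NMI, a partner of STAT proteins, rose by 0.49 ± 0.13 in WT and 0.70 ± 0.13 in SCR, and IFI44L by 0.31 ± 0.10 and 0.47 ± 0.10. Their calls in WT were kept in 3 and 1 of 6 fits without 1 library. In KD the groups of both were apart, at 0.41 ± 0.13 and 0.27 ± 0.10 (edgeR, adjusted p = 0.0517 and 0.0987), and DESeq2 called NMI. IFI6, a small mitochondrial protein that opposes apoptosis, rose in SCR by 0.55 ± 0.13.

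IFI35 (chr17:41158757-41166473), which binds NMI, went the other way. In SCR it fell from 197, 177 and 173 to 113, 106 and 106 CPM, a log2 change of -0.75 ± 0.14 (adjusted p = 6.6e-04). In KD it fell from 202, 196 and 252 to 191, 150 and 144 CPM, a change of -0.42 ± 0.14 (adjusted p = 0.0479), a call lost in 3 of 6 fits without 1 library and in the fit to the KD libraries alone. In WT it was at 115, 173 and 122 CPM in medium and 144, 138 and 148 with LPS, which overlapped, at 0.07 ± 0.14. LGALS3BP, a secreted glycoprotein that binds galectins, fell in SCR by 0.35 on the log2 scale (SE 0.12, adjusted p = 0.045), with the groups apart, but the call was lost in 5 of 6 fits without 1 library, with RLE scaling and with no filter. PLSCR1, a phospholipid scramblase, EPSTI1 and IFI44 did not pass any LPS comparison by edgeR; DESeq2 called IFI44 in KD, where its edgeR change was 0.59 ± 0.20 (adjusted p = 0.0556), and with no filter edgeR called all 3 in KD and EPSTI1 in SCR.

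**Figure D2:**
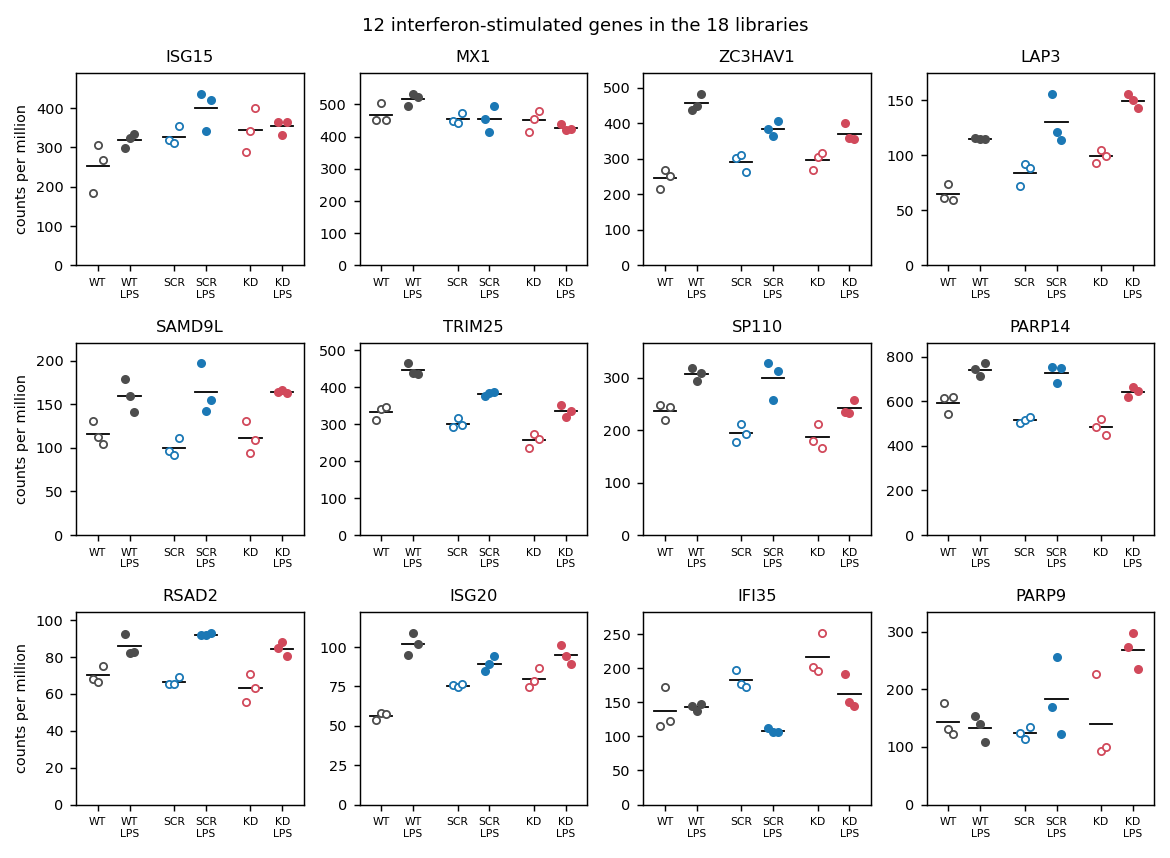
CPM (y axis, from 0) of 12 members in each of the 18 libraries, by condition, in medium (open) and with LPS (filled); black lines are means of 3 libraries. ZC3HAV1, LAP3, SAMD9L, TRIM25, SP110, PARP14 and RSAD2 are higher with LPS in WT, SCR and KD, IFI35 is lower with LPS in SCR and KD, and PARP9 spreads widely in KD in medium.

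The genes that carry the interferon signal were read from a second list of 21, of which 19 were tested and IFNA1 and IFNG were at 0 counts in every library. LPS raised 3 of the 19 and lowered 1 in WT, where 7.01% and 7.26% of all genes were called in those directions. It raised 6 and lowered 1 in SCR, against 8.64% and 8.56% of all genes, and raised 4 in KD, against 6.41%. Counts this small are given as a description only. IFNB1 was at 0.248 to 4.8 CPM over the 18 libraries and was not called in any comparison. IFNGR2, a subunit of the receptor for interferon gamma, rose by 1.23, 0.96 and 1.08 on the log2 scale in WT, SCR and KD. TLR4, the LPS receptor, fell by 1.08 in WT and by 0.73 in SCR, and in KD its difference was 0.01 (adjusted p = 0.992). TLR4 was already lowest in KD medium libraries, at 7.99, 8.1 and 7.62 CPM. WT medium libraries held 20.1, 12.9 and 13.1 CPM, and SCR medium libraries 10.0, 11.7 and 9.16. In medium KD differed from WT by -0.96 ± 0.22 (edgeR, adjusted p = 0.00697). From SCR it differed by -0.38 ± 0.22, which did not pass (adjusted p = 0.502). With LPS the ranges of all 3 conditions overlapped. The response difference KD minus SCR, 0.73 ± 0.32, did not pass (adjusted p = 0.632). SOCS3, an inhibitor of JAK kinases, rose by 2.48 in SCR and 1.90 in KD. In WT its difference was 1.22, with the groups apart, and did not pass (edgeR, adjusted p = 0.0732). SOCS3 had 6 to 165 counts per library.

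The second question was how SCR cells, transfected with a non-targeting siRNA, differed from WT cells in the members. If WT cells were untreated, the transfection mix and the siRNA both differ between these arms. In medium, SCR differed from WT in 2 of the 37, where 3.23% of all genes were called, 1.78% higher and 1.45% lower. ISG20 was higher in SCR, by 0.42 ± 0.09 on the log2 scale (adjusted p = 0.0151), with each SCR library above each WT library. ADAR was lower, at 516, 591 and 582 CPM in SCR against 723, 692 and 717 in WT, a difference of -0.34 ± 0.07 (adjusted p = 0.011). The count was 0 without SCR medium replicate 1, 1 without SCR medium replicate 3 or WT medium replicate 1, and 4 without WT medium replicate 2. With LPS, 0 members passed in SCR against WT, where 0.114% of all genes were called; 11 members had an unadjusted p under 0.05, where 13.7% of all genes did, and DESeq2 called 2, DTX3L and HERC6, against 2.47% of the genes it tested.

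Knockdown of TRAFD1 was the purpose of the experiment, and KD against SCR is the comparison in which both arms received an siRNA. None of the 37 members passed it by edgeR in medium or with LPS. In medium 0.0660% of all genes were called, 5 members had an unadjusted p under 0.05 against 12.6% of all genes, and DESeq2 called 1, USP18, against 1.80% of the genes it tested. With LPS 0% of all genes were called, 9 members had an unadjusted p under 0.05 against 11.8% of all genes, and DESeq2 called 1, IFI35, against 1.28%. The median log2 difference over the members was 0.01 in medium and -0.06 with LPS, and the median of its size, 0.11 and 0.16, was below the 0.20 over all genes in both states. These medians were not matched for expression level. In SCR in medium the members had a median of 165 CPM, against 11.0 over all tested genes. The part of level in the smaller size was not tested. USP18 was at 426, 296 and 326 CPM in SCR in medium and 288, 243 and 259 in KD, with no overlap and a difference of -0.41 ± 0.11 (edgeR, adjusted p = 0.105). With LPS, IFI35 was at 113, 106 and 106 CPM in SCR and 191, 150 and 144 in KD, again with no overlap and a difference of 0.58 ± 0.14 (edgeR, adjusted p = 0.137). CMPK2, DTX3L, TRIM25 and USP18 lay below SCR in every KD library in both states, at log2 differences of -0.41 to -0.12. None passed by edgeR (lowest adjusted p = 0.105). These members were picked out after their values were seen, and the share of all genes that lay apart in both states was not computed. They are given as a description, and no effect of the siRNA is read from them.

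UBE2L6, PARP9, TRIM21 and LGALS3BP are also on the list of genes that the study had tied to TRAFD1 in blood samples. UBE2L6 was at 116, 95.7 and 102 CPM in SCR in medium and 114, 108 and 119 in KD, and with LPS at 113, 88.5 and 99.1 against 113, 102 and 122. The groups overlapped in both states, at 0.12 ± 0.11 and 0.16 ± 0.11. PARP9 was at 124, 113 and 135 CPM in SCR in medium and 227, 92.5 and 99.8 in KD, so that 1 KD library lay above and 2 below all of SCR. With LPS it was at 170, 257 and 123 CPM in SCR and 273, 298 and 236 in KD, which overlapped, and the differences were 0.18 ± 0.27 and 0.55 ± 0.27 (adjusted p = 0.837 and 0.426). Without KD medium replicate 1 the difference in medium turned to -0.37.

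TRIM21 was at 35, 34.0 and 45.4 CPM in SCR in medium and 49.5, 28.6 and 44.4 in KD, which overlapped. With LPS it was at 55.4, 58.3 and 48.2 CPM in SCR and 74.4, 60.7 and 64.1 in KD, which did not. The differences were 0.10 ± 0.19 and 0.30 ± 0.19 (adjusted p = 0.872 and 0.549), and the first turned to -0.06 without KD medium replicate 1. LGALS3BP was at 104, 85.9 and 91.4 CPM in SCR in medium and 77.3, 86.6 and 96.5 in KD. With LPS it was at 73.9, 73.2 and 73.5 CPM against 89.0, 77.0 and 89.4. Its differences were -0.12 ± 0.12 and 0.21 ± 0.12, neither past the test, and the groups were apart with LPS.

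**Figure D3:**
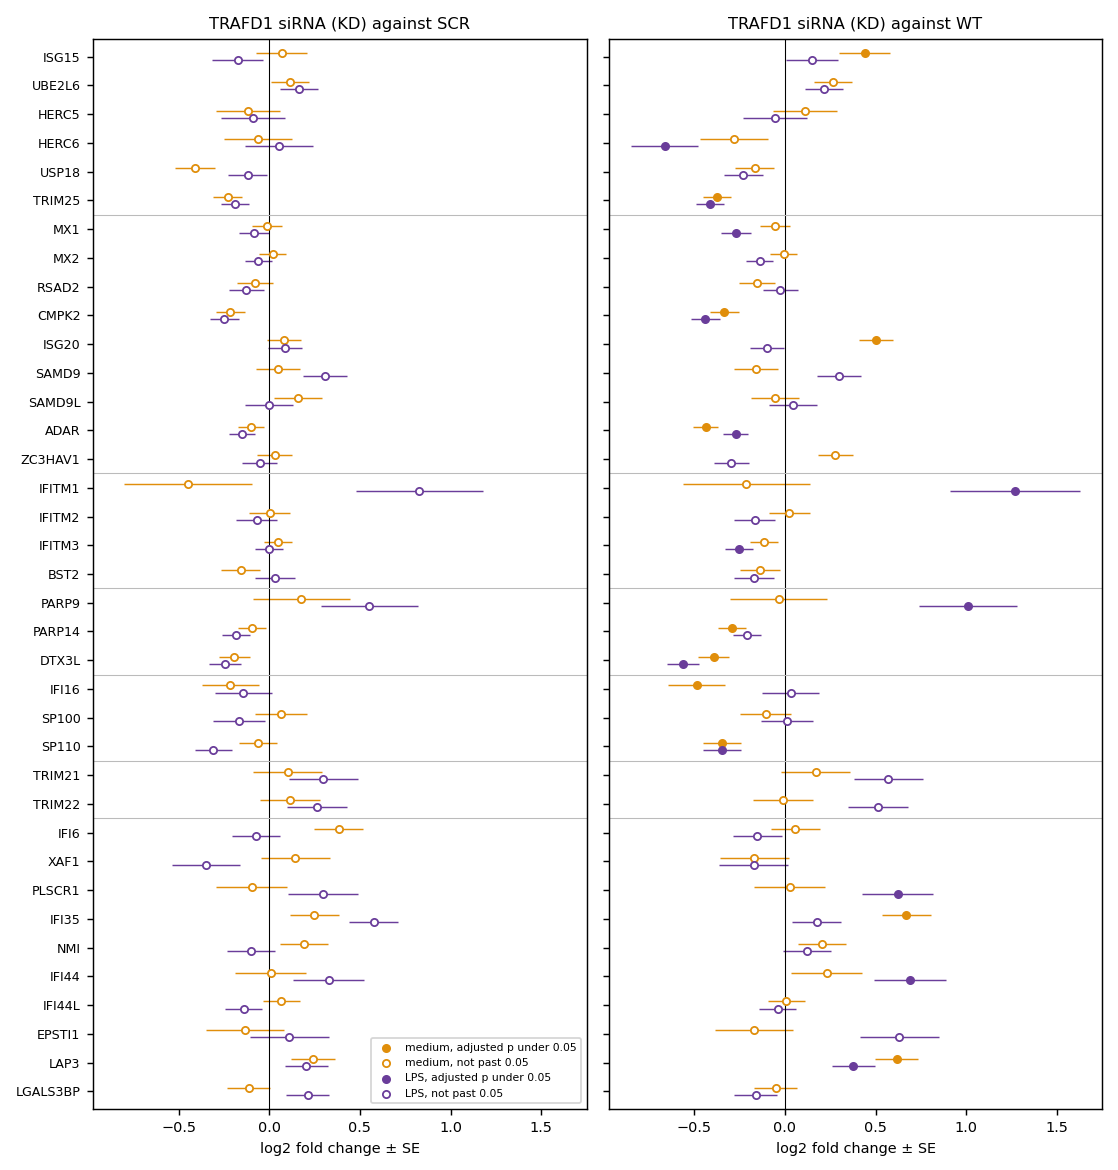
Log2 difference (x axis, ± SE) of KD from SCR (left) and from WT (right) for the 37 members, in medium (orange) and with LPS (purple); filled points passed an adjusted p of 0.05 (edgeR). The left panel holds only open points, and the right panel holds 11 filled points in medium and 13 with LPS.

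KD against WT compares cells given the TRAFD1 siRNA with cells given no siRNA. Both the presence of an siRNA and its target differ between the arms. If WT cells were untreated, as the series text has it, the transfection mix differs too. The comparison shares the KD libraries with KD against SCR. In medium, 4 members were higher in KD and 7 lower, where 11.7% of all genes were called, 5.85% higher and 5.85% lower. LAP3, ISG20 and IFI35 had the smallest adjusted p among the higher ones, at 0.62 ± 0.12, 0.50 ± 0.09 and 0.67 ± 0.14, and ISG15 was higher by 0.44 ± 0.14 (adjusted p = 0.0476), although its groups overlapped and the call was lost in 4 of 6 fits without 1 library, with RLE scaling and with those 6 libraries alone. ADAR, TRIM25 and DTX3L led the lower ones, at -0.44 ± 0.07, -0.38 ± 0.08 and -0.39 ± 0.09. DTX3L was at 442, 465 and 475 CPM in WT and 299, 370 and 382 in KD, so that no library of one group reached the other. CMPK2, PARP14, IFI16 and SP110 were also lower. The call of PARP14 was kept in 3 of 6 fits without 1 library, and those of IFI16 and SP110 in 2 each. The count was 7 without KD medium replicate 3, WT medium replicate 1 or WT medium replicate 3, and 1 in a fit to those 6 libraries alone.

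With LPS, 5 members were higher in KD than in WT and 8 lower, where 10.8% of all genes were called, 6.29% higher and 4.55% lower. PARP9 was at 153, 140 and 108 CPM in WT and 273, 298 and 236 in KD, a difference of 1.01 ± 0.27 (adjusted p = 0.0206). IFITM1 was at 12.4, 11.7 and 4.70 CPM in WT and 25.1, 26.4 and 18 in KD, a difference of 1.27 ± 0.36 (adjusted p = 0.0278). IFI44 was at 116, 110 and 82.0 CPM in WT and 158, 194 and 144 in KD, a difference of 0.69 ± 0.20 (adjusted p = 0.03). In all 3 genes every KD library lay above every WT library, and PLSCR1 and LAP3 were higher by 0.62 ± 0.20 and 0.38 ± 0.12. DTX3L, CMPK2 and TRIM25 had the smallest adjusted p among the lower ones. DTX3L was at 487, 461 and 515 CPM in WT and 324, 333 and 333 in KD, a difference of -0.56 ± 0.09 (adjusted p = 0.00104). CMPK2 and TRIM25 differed by -0.44 ± 0.08 and -0.41 ± 0.08, and HERC6, MX1, ADAR, IFITM3 and SP110 were also lower. The calls of MX1, IFITM3, SP110 and LAP3 were kept in 0 of 6 fits without 1 library. That of PLSCR1 was kept in 1, those of ADAR and HERC6 in 2, those of IFI44 and IFITM1 in 3, and that of PARP9 in 4. The count was 3 without KD LPS replicate 5 or WT LPS replicate 6, 5 without KD LPS replicate 4, 6 without KD LPS replicate 6 and 8 without WT LPS replicate 4, and DTX3L, CMPK2 and TRIM25 passed in each of the 6 fits. Over all genes, Spearman's rho between this difference and GC percent was -0.162, and its part in the calls was not tested.

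The differences between the LPS responses were tested as such. None of the 37 members passed for SCR minus WT, where 0.234% of all genes were called; 6 had an unadjusted p under 0.05, against 9.96% of all genes, and DESeq2 called 2, ISG20 and IFI35, against 0.564%. ISG20 came closest by edgeR, at -0.61 ± 0.13 (adjusted p = 0.0567), followed by IFI35 at -0.82 ± 0.19 (adjusted p = 0.103). For KD minus SCR none passed, where 0% of all genes were called by edgeR; 2 members had an unadjusted p under 0.05, against 7.64% of all genes, and DESeq2 called 0, against 0.0180%. With no filter on low counts, edgeR called 3 members for SCR minus WT, EPSTI1, IFI35 and PARP9, and 2 for KD minus SCR, IFI6 and IFITM1.

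Several members are neighbours in the genome, and their values are set side by side without a test of the difference within a pair. SAMD9 and SAMD9L lie 12 kb apart, and IFI44 and IFI44L 3.7 kb apart. HERC5 and HERC6 lie 14.0 kb apart; in WT, HERC6 differed on LPS by 0.60 ± 0.18, a call lost in 5 of 6 fits without 1 library, and HERC5 by 0.03 ± 0.18. MX1 and MX2 lie 10.6 kb apart, with 0.14 ± 0.08 and 0.25 ± 0.07. RSAD2 and CMPK2 start head to head at the RSAD2 start site shown above and share its core. Both were called in WT. In SCR and KD, CMPK2 differed by 0.18 ± 0.08 and 0.15 ± 0.08 with its groups apart, not past the test. PARP9 and DTX3L also start head to head and share a core, and in KD against WT with LPS they differed in opposite directions.

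The spread of PARP9 within groups was followed by other members. Deviations of log2 CPM from the group mean were correlated over the 18 libraries, which share 6 group means, and are given as a description. How many of all tested genes followed PARP9 as closely was not computed, so the pattern is not shown to be particular to the members. Pearson's r with PARP9 was 0.952 for EPSTI1, 0.918 for TRIM22, 0.903 for PLSCR1, 0.881 for IFI44, 0.852 for IFITM1 and 0.796 for IFI16, and -0.923 for DTX3L and -0.821 for IFITM3. The deviation of PARP9 was highest in KD medium replicate 1, at 0.83, and SCR LPS replicate 5, at 0.55, and lowest in SCR LPS replicate 6, at -0.51. PARP9, IFITM1, IFI44 and PLSCR1, 4 of the 5 members higher in KD than in WT with LPS, belong to the group with r above 0.79, and DTX3L, the lower member with the smallest adjusted p, has the most negative r.

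**Figure D4:**
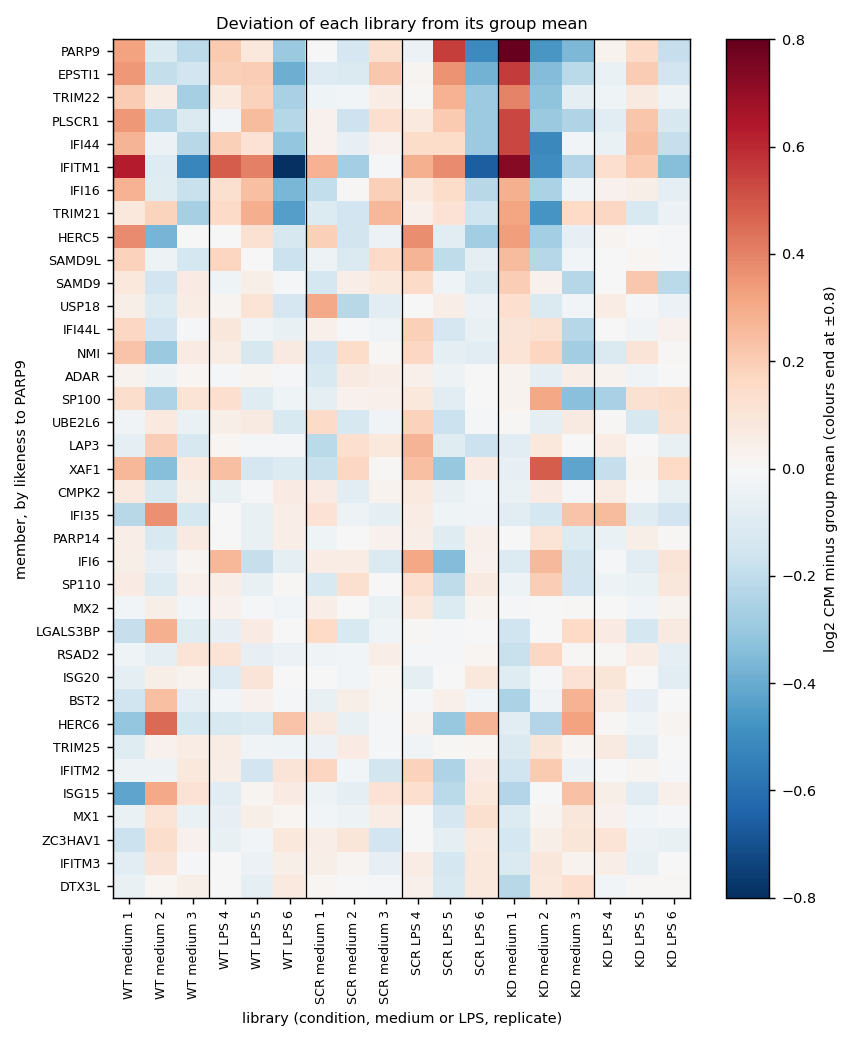
Deviation of log2 CPM from the group mean (colour) of the 37 members (rows, by correlation with PARP9) in the 18 libraries (columns, black lines between groups). The top 7 rows are red together in WT medium replicate 1 and KD medium replicate 1 and blue together in WT LPS replicate 6 and SCR LPS replicate 6, and DTX3L in the bottom row is blue in KD medium replicate 1.

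The base composition dependence of the libraries moved with these deviations. Over the 18 libraries, the deviation of PARP9 and the library's rho with GC percent had Pearson's r = -0.877 and Spearman's rho = -0.886, and r = -0.850 without WT medium replicate 1 and KD medium replicate 1. The window was 36.6% GC in PARP9, 37.2% in EPSTI1, 23.4% in PLSCR1 and 33.8% in IFI44, but 57.8% in IFITM1, and 37.0% in DTX3L, against a median of 42.8% over all genes. Over the 37 members, rho between the likeness to PARP9 and GC percent was -0.455. Between conditions with LPS, rho between the log2 difference and GC percent over all genes was -0.209 for SCR against WT and -0.006 for KD against SCR. The part of base composition in these differences was not tested.

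**Figure D5:**
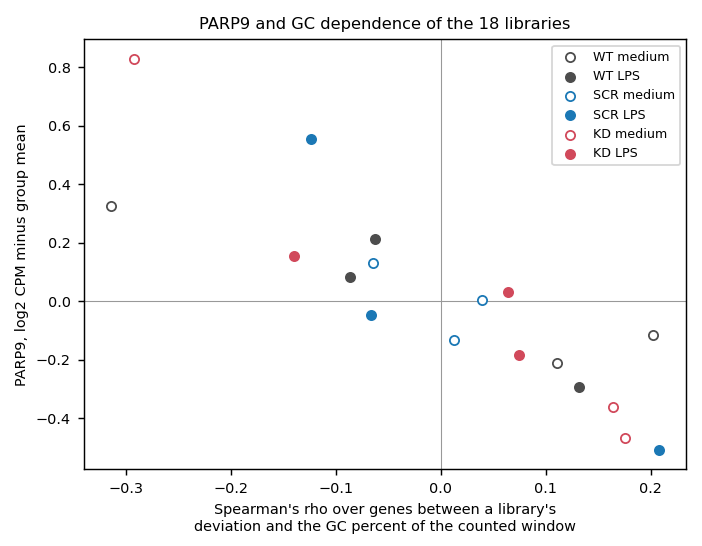
Deviation of PARP9 from its group mean (y axis, log2 CPM) against Spearman's rho over genes between the library's deviation and the GC percent of the counted window (x axis), 1 point per library, open in medium and filled with LPS. The points fall from the upper left, KD medium replicate 1 at 0.83, to the lower right, SCR LPS replicate 6 at -0.51.

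Other limits concern single genes. By the GENCODE annotation used here, other genes overlap the counted window of 8 members. C17orf67 and DGKE reached 203 and 546 counts at TRIM25, TRIM5 402 counts at TRIM22 and LINC02574 47 counts at IFI6, and the others 4 counts or fewer. The authors counted on an Ensembl annotation, in which a window, and so an overlap, may differ. The strand setting of the counting is not given in the sources used here, so reads of overlapping genes may not be separable. USP18 has a near copy, USP41, with which reads may be shared.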

How the data were processed

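RNA of 18 THP-1 libraries was sequenced with QuantSeq, which reads from the 3-prime end of polyadenylated RNA. Per the labels and the study's methods, the authors aligned reads to GRCh37 with HISAT and counted them with featureCounts over the last 500 bases of each Ensembl gene; the deposited values are raw read counts, and all 18 columns were used.

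Counts were analysed in R 4.3.3 with edgeR 4.0.16: low genes were removed with filterByExpr by group, libraries were scaled by TMM, and all 18 libraries entered 1 fit with group means. The quasi-likelihood F test was made for 11 contrasts, with Benjamini-Hochberg adjustment over the 16678 genes tested and a threshold of 0.05. The common biological coefficient of variation was 0.17. CPM are counts per 1e+06 of the TMM-scaled total, SE is the log2 value divided by the square root of F, and deviations use log2 CPM with a prior count of 2. Totals of 8206023 to 22344279 counts set the counting error. The fit was tested on simulated counts. No pair of libraries within a group looked like a library deposited in duplicate, and pairs across groups were not compared. The members and lists, and the members described in full (ISG15, MX1, members called in all 3 LPS contrasts, the 3 smallest adjusted p per direction between conditions, and those on the study's TRAFD1 list), were chosen with earlier results of these data known; the other members, and GC content, were added after their values were seen. Same-numbered libraries deviated together by the set rule (every correlation above 0.1) in SCR against WT with LPS alone, at 0.261, 0.163 and 0.253. Alternatives were DESeq2 1.42.0, RLE scaling, no filter, fewer libraries, a replicate block and the study's rule (absolute log2 fold change over 1, adjusted p of at most 0.01).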

Additional observations from a re-analysis of the deposited data

How the results depend on the processing

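With RLE scaling no count of called members moved by more than 1.5 times. Under the study's rule the count fell to 0 for LPS in WT and KD, 1 for LPS in SCR (XAF1), 0 for SCR and KD against WT in medium, and 1 for KD against WT with LPS, a rule that changes the tool, the fold limit and the adjusted p together. With the compared libraries alone it was 4 for LPS in KD, 1 for SCR against WT in medium, 1 for KD against SCR with LPS and 1 for KD against WT in medium. With no filter it was 5 and 4 for SCR against WT in medium and with LPS, 2 and 3 for KD against SCR, and 3 and 2 for the differences of responses SCR minus WT and KD minus SCR. DESeq2 called 2 for SCR against WT with LPS, 1 and 1 for KD against SCR and 2 for the response difference SCR minus WT. With a replicate block it was 4 for SCR against WT in medium, 1 and 1 for KD against SCR, and 12 and 17 for KD against WT. In SCR against WT with LPS, where same-numbered libraries deviated together by the set rule, it stayed 0. The cause of these shifts was not tested. Leaving out 1 library gave 5 to 11 for LPS in WT, 11 to 13 in SCR, 7 to 18 in KD, 0 to 4 for SCR against WT in medium, 7 to 12 and 3 to 10 for KD against WT in medium and with LPS, 0 to 2 for the response difference SCR minus WT and 0 elsewhere.

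Signs turned where values were near 0. MX1 on LPS in SCR, -0.0027, was 0.0053 with RLE, 0.0018 with no filter, 0.0054 with DESeq2, 0.0044 under the study's rule and -0.0684 to 0.0628 without 1 library. Without 1 library, ISG15 on LPS in KD ran from -0.0659 to 0.1679, PARP9 in KD against SCR in medium from -0.3657 to 0.3999 and TRIM21 from -0.0616 to 0.3026. Depth limited IFITM1 most, at 48 to 440 counts per library.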
